A study of Mus musculus with 4 samples.

Results

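The 10 genes described here encode 7 S100 proteins (S100a4, S100a6, S100a8, S100a9, S100a10, S100a11 and S100a13) and 3 annexins (Anxa1, Anxa2 and Anxa5). They were taken by symbol from the 21889 genes of the deposited tables. S100a10 was chosen because its transcript was nearly lost in 1 resistant line, and the others were set beside it as its binding partner, its neighbours on the chromosome or members of the same families. The set was thus selected on the FPKM of that line against its parent, B140H against B140P, and those values are given below as a description. All 10 genes had a mean of at least 1 FPKM (fragments per kilobase of transcript, scaled to the number of mapped fragments) over the libraries, the limit above which 10066 genes counted as expressed.

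The 4 sequenced mouse lines, with 1 library each, came from acute myeloid leukaemia in BXH-2, an inbred strain prone to retrovirally induced myeloid leukaemia. B117P is a parental line, sensitive to the nucleoside analogue cytarabine (Ara-C) with a labelled IC50 near 150 ng/ml, and B117H is the highly resistant line made from it, with an IC50 near 160 µg/ml. B140P is the other parental line, with an IC50 near 110 ng/ml, and B140H its highly resistant derivative, with an IC50 near 60 µg/ml. Per the labels, resistance was raised with stepwise higher Ara-C concentrations and passage was in ASM medium without the drug. Whether a line was 1 clone is not given in the sources used here. B117P with B117H and B140P with B140H are called lineages. With 1 library per line, no value has a replicate error, a difference within a lineage was not tested, and fewer cells with a transcript cannot be told apart from less of it per cell.

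S100 proteins are small proteins, most but not all calcium-binding, that work as dimers inside the cell and, for some, as secreted signals of inflammation. Annexins are cytosolic proteins that bind acidic membrane lipids when calcium rises. The families meet in heterotetramers, in which an S100 dimer joins a pair of annexins, the best known being S100a10 with annexin A2, a complex that brings plasminogen to the cell surface and links membranes to the cytoskeleton. In myeloid cells S100a8 and S100a9 form calprotectin, an abundant cytosolic protein of mature neutrophils and monocytes.

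The labelled cell type was checked against marker genes. Ptprc, the pan-leukocyte antigen, was at 50.1 to 89.0 FPKM and Sfpi1, the myeloid transcription factor PU.1, at 76.6 to 111 FPKM over the 4 lines. The progenitor markers Cd34 and Kit were at 29.9 to 206 FPKM in lineage B117, but in lineage B140 Cd34 was at 0.0432 and 0 FPKM and Kit was listed at 0 in both lines. Mpo, the myeloperoxidase of early granulocytes, was at 1450 and 473 FPKM in B117P and B117H and at 10.4 and 0.913 FPKM in B140P and B140H. The epithelial markers Epcam, Krt8 and Krt18 were at 0 in all 4 lines, the 3 stromal collagens did not pass 0.0584 FPKM and the 3 T cell markers did not pass 0.133 FPKM. Among B cell markers, Cd79b, a chain of the B cell receptor complex, was at 1.67 and 0.546 FPKM in B117P and B117H and at 44.5 and 64.2 FPKM in B140P and B140H, and Cd79a, its partner chain, was at 0.3996 and 0.0406 against 6.63 and 16.1 FPKM, past the 2-fold rule in B140H, while Ms4a1 did not pass 0.0253 FPKM. The part of these markers in the values of the members was not tested. Small RNA genes took between 17.4% and 98.1% of the summed FPKM, and the spacing of low values gave estimated depths of 19150000 to 24530000 fragments.

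The members' mm9 positions fall on 3 chromosomes. S100a13, S100a4, S100a6, S100a8 and S100a9 lie on chromosome 3 between 90318682 and 90499613. S100a11 (93324418 to 93330210) and S100a10 (93359039 to 93368567) lie further along chromosome 3, separated from each other by 28.8 kb and from S100a9 by 2824.8 kb. Of the 50 genes listed in that interval none had a mean FPKM of 1, and 49 were at 0 in all 4 lines. Anxa5 is on chromosome 3 from 36347846 to 36374809, Anxa2 on chromosome 9 from 69301490 to 69339592 and Anxa1 on chromosome 19 from 20447924 to 20465161. Among the members, Anxa2 alone overlapped another listed gene, the microRNA gene Mir3109.

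Promoter windows of 300 bases, 250 before to 50 after the start of the gene, were found in the RefSeq table of the GRCm38.p6 build for 9 of the 10 members. S100a10 had no entry. The 250 bases before 3 starts are shown for the member that was near silent in lineage B140 only (S100a11), for the member with the highest level in every line (S100a4) and for the partner of S100a10 (Anxa2), each 5′ to 3′ on the plus strand, along which all 3 genes are transcribed. For S100a11 the capitals mark each CG dinucleotide, and for S100a4 and Anxa2 they mark the motif TATAAA.
S100a11 (chr3:93520246-93520495): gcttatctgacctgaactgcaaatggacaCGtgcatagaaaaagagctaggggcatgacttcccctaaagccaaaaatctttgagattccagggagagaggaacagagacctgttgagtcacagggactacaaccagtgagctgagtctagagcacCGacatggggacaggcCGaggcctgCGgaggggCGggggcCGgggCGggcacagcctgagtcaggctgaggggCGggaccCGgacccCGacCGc
S100a4 (chr3:90603520-90603769): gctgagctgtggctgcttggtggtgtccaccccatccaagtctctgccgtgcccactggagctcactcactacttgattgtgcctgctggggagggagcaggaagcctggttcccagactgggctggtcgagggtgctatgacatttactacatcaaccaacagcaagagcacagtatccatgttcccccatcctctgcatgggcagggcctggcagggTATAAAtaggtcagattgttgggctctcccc
Anxa2 (chr9:69453433-69453682): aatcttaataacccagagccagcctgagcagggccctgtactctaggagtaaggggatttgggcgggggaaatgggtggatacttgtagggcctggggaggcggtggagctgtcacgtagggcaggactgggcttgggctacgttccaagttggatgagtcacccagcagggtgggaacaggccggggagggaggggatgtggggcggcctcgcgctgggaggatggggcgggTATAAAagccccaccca
The S100a11 stretch held 11 CG dinucleotides, while TATAAA began 31 bases before the listed start of S100a4 and 17 bases before that of Anxa2.

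Over the full 300-base windows the members fell into a CpG-poor and a CpG-richer set. S100a4 and S100a9 held 2 CG dinucleotides each, Anxa1 held 3, S100a8 held 4 and S100a6 held 6, against a median of 7 over all 32851 windows. Anxa2 held 13, S100a13 held 14, S100a11 held 15 and Anxa5 held 16. Motifs were searched on both strands. TATAAA was present in 5 of the 9 member windows, those of S100a4, S100a8, S100a9, Anxa1 and Anxa2, against 13.6% of all windows. GGGCGG, the GC box bound by Sp1 factors, which itself contains a CG, was present in 3 (35.7% of all windows), and TGANTCA, the AP-1 site, in the 2 windows of S100a11 and Anxa2 (7.8%). TTNNGNAA, a C/EBP-like sequence, was present in 3 (40.7%) and GAGGAA, a PU.1-like core, in 4 (28.3%). These matches describe the letters of the windows and were not tied to a factor.

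S100a4, a regulator of myosin and cell movement, had the highest level of the members in every line. Its FPKM was 573 in B117P, 651 in B117H, 766 in B140P and 855 in B140H, above at least 98.6% of expressed genes in each line. The resistant line was 1.14-fold above its parent in lineage B117 and 1.12-fold above it in lineage B140. On the log2(FPKM + 1) scale, on which all ratios below are given, the differences were 0.19 and 0.16, within the 2-fold rule (an absolute log2 ratio of at least 1) used below. The second of these was 0.00 when FPKM was rescaled to TPM without small RNA genes.

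S100a10 was abundant in 3 lines and almost absent from the fourth. Its FPKM was 176 in B117P, 128 in B117H, 106 in B140P and 0.401 in B140H. In the first 3 lines it stood above at least 93.3% of expressed genes, and in B140H above 4.9%. B140H had 0.38% of the level of B140P, a log2 ratio of -6.25, which ranked 4 from the lowest among the 10066 expressed genes, behind small RNA genes only. The estimated depth and a transcript of 685 nucleotides put the B140H value at about 6.74 fragments against about 1380 in B140P. An exact Clopper-Pearson 95% interval on these estimated fragments, which covers counting error only, ran from 0.149% to 0.795% of the parental level. This is the contrast that chose the gene. In lineage B117, B117H had 72.9% of the level of B117P, with an interval of 68.5% to 77.4%. The log2 ratio was -0.45, within the 2-fold rule. The stated reason for the choice did not name lineage B117, but earlier results of these data were known when the members were chosen.

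Anxa2, whose protein is the annexin partner of S100a10, had a different order of lines. Its FPKM was 183 in B117P, 89.9 in B117H, 147 in B140P and 182 in B140H. B117H was the low line, and the line without S100a10 was level with the highest. B117H had 49.1% of its parent's Anxa2, with an interval of 46.8% to 51.4% and a log2 ratio of -1.02. That value sat at the edge of the 2-fold rule: it was -0.99 after the libraries were centred and -0.97 in TPM without small RNA genes, both just inside it. In B140H the log2 ratio was 0.31, a 1.24-fold higher level with an interval of 119% to 129% of the parent.

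Set against each other per length, the partners were at comparable levels in 3 lines. The FPKM of S100a10 divided by that of Anxa2 was 0.959 in B117P, 1.42 in B117H, 0.718 in B140P and 0.0022 in B140H. Anxa2 transcript was at a high level in the line in which S100a10 transcript was nearly gone. These are ratios of transcript levels, and protein was not measured.

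**Figure D1:**
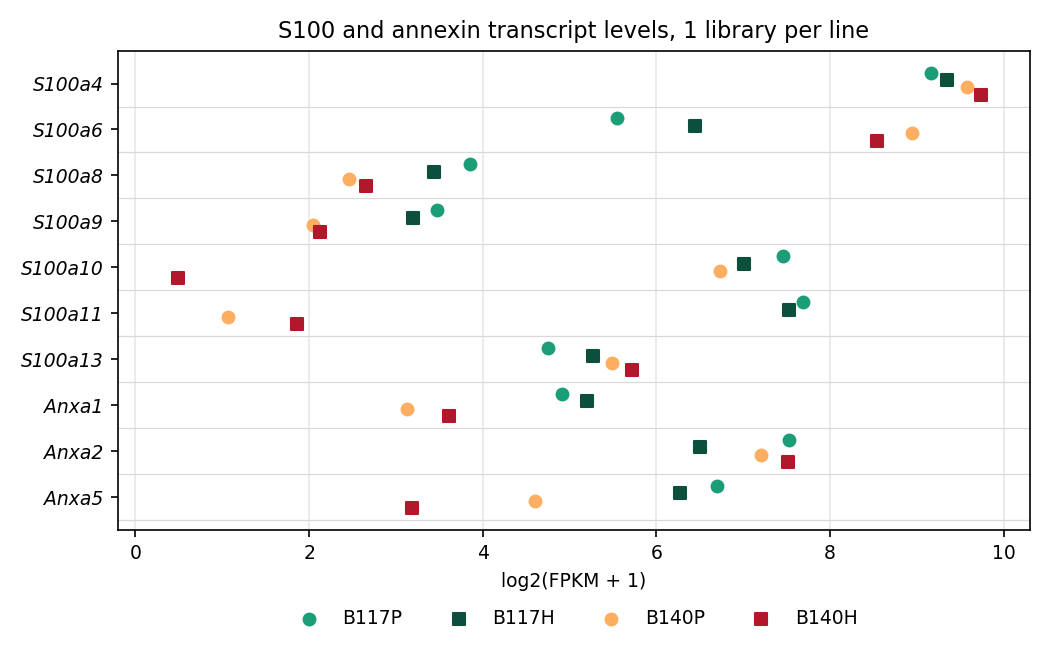
Level of each of the 10 members in the 4 lines as log2(FPKM + 1), with 1 point per library (circles, parental lines; squares, resistant lines; greens, lineage B117; orange and red, lineage B140). S100a10 is at 106 FPKM in B140P and 0.401 FPKM in B140H, and S100a11 is far lower in both B140 lines than in both B117 lines.

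S100a11, a partner of annexin A1 and the nearest listed S100 gene to S100a10, differed by lineage. Its FPKM was 205 in B117P and 183 in B117H, but 1.09 in B140P and 2.64 in B140H. The parental lines differed 187-fold and the resistant lines 69.4-fold, always with lineage B140 lower. Within lineage B117 the log2 ratio was -0.16. Within lineage B140 it was 0.80, from about 10.7 to about 33.1 estimated fragments, and the counting interval of the share, 118% to 535% of the parent, was wide. With a pseudocount of 0.1 this ratio was 1.20, past the 2-fold rule.

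Levels set side by side across lineages carry a limit. For 6 genes, none of them a member, B117 and B140 files list different coordinates, while files of the same lineage always match, so a joint normalisation of all 4 libraries is not certain. The median log2 ratio over expressed genes was near 0 for B140P against B117P and 0.15 for B140H against B117H.

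S100a6, or calcyclin, was more than 2-fold higher in lineage B140, both between the parents and between the resistant lines. Its FPKM was 45.7 in B117P, 86.3 in B117H, 493 in B140P and 371 in B140H. Both B140 lines were above both B117 lines, 10.8-fold between the parents and 4.3-fold between the resistant lines. Within the lineages the ratios went opposite ways, at 0.90 in B117H, where 1.8% of expressed genes had a higher ratio, and -0.41 in B140H, both within the 2-fold rule. S100a6 starts 6.8 kb from the end of S100a4, yet the FPKM of S100a6 divided by that of S100a4 ran from 0.0799 in B117P to 0.644 in B140P.

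S100a8 and S100a9, the calprotectin pair, kept a similar proportion to each other. S100a8 stood above 51.3% and 42.7% of expressed genes in B117P and B117H, and above 22.7% and 25.9% in B140P and B140H. For S100a9 these shares were 42.4%, 37.3%, 17.0% and 17.8%. S100a8 was at 13.5, 9.85, 4.52 and 5.32 FPKM in B117P, B117H, B140P and B140H. S100a9 was at 10.1, 8.19, 3.14 and 3.37 FPKM in the same lines. Both B117 lines were above both B140 lines for each gene. The FPKM of S100a8 was 1.2 to 1.58 times that of S100a9 over the 4 lines. Resistant and parental lines were within 2-fold, with log2 ratios of -0.42 and -0.27 in lineage B117 and 0.20 and 0.08 in lineage B140. The last value turned to -0.05 in TPM without small RNA genes and to -0.03 after centring, so its direction depended on the scaling.

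Other neutrophil and monocyte genes give the setting of the calprotectin pair. The summed FPKM of 10 neutrophil markers was 2780 in B117P, 1082 in B117H, 420.4 in B140P and 369.8 in B140H. Most of each sum came from Mpo, Ctsg, Prtn3 and Elane. Ltf, Camp, Ngp and Lcn2 did not pass 2.78 FPKM in any line, and their log2 ratios in B117H were 0.16, 0.65, 0.45 and 0.03. Those of Mmp8 and Mmp9 were -0.66 and -0.035. That of 7 monocyte markers was 298.3, 223.3, 54.8 and 197.4. The summed FPKM of S100a8 and S100a9 was 23.6, 18.0, 7.66 and 8.69. Among the 6 expressed neutrophil markers 3 fell past 2-fold in B117H, and in B140H 1 rose and 1 fell. Of the 7 monocyte markers 3 fell in B117H, and in B140H 3 rose and 1 fell. The part of such shifts in the values of the members was not tested.

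S100a13, which takes part in the export of growth factors that lack a signal peptide, stood above 70.9% to 83.3% of expressed genes in the lines. Its FPKM was 25.9 in B117P, 37.7 in B117H, 43.9 in B140P and 51.7 in B140H. It was higher in the resistant line of each lineage, with log2 ratios of 0.52 and 0.23, within the 2-fold rule. In B117H 6.0% of expressed genes had a higher ratio.

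The divergent neighbour of S100a13 behaved differently. S100a1, an S100 protein best known in heart muscle and not among the 10 members, was at 46.6, 48.5, 42.5 and 7.95 FPKM in B117P, B117H, B140P and B140H. B140H had 18.7% of the parental level, with an interval of 15.3% to 22.6% and a log2 ratio of -2.28. The RefSeq starts of S100a1 and S100a13 in GRCm38.p6 face away from each other across 104 bases, shown here on the plus strand because the pair share this stretch, with each CG in capitals.
Between the starts of S100a1 and S100a13 (chr3:90514331-90514434): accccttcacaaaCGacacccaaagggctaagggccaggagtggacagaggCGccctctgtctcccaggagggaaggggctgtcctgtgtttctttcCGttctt
The stretch held 3 CG dinucleotides. S100a1 reads leftward from it and S100a13 rightward. In the mm9 spans of the deposited tables the genes do not overlap and lie 0.43 kb apart. The FPKM of S100a1 divided by that of S100a13 was 1.8, 1.29, 0.968 and 0.154 in B117P, B117H, B140P and B140H, so B140H was again the line that stood apart.

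Anxa1, an anti-inflammatory annexin that acts through formyl peptide receptors, was higher in lineage B117. Its FPKM was 29.1 in B117P, 35.6 in B117H, 7.75 in B140P and 11.2 in B140H. The parents differed 3.75-fold and the resistant lines 3.18-fold. The resistant line had 123% of the parental level in lineage B117 and 145% in lineage B140, log2 ratios of 0.29 and 0.48, within the 2-fold rule. Of the receptors, Fpr1 and Fpr3 were listed at 0 in all 4 lines and Fpr2 did not pass 0.0833 FPKM.

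Anxa5, a membrane-binding annexin used as a probe of exposed phosphatidylserine, was lower in the resistant line of each lineage. Its FPKM was 103 in B117P, 76.2 in B117H, 23.3 in B140P and 8.08 in B140H. Both B140 lines were below both B117 lines, 4.42-fold between the parents and 9.43-fold between the resistant lines. B117H had 74% of the parental level, with a log2 ratio of -0.43. B140H had 34.7%, with an interval of 30.4% to 39.4% and a log2 ratio of -1.42, past the 2-fold rule.

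Counted together, 1 of the 10 members (Anxa2) fell past 2-fold in B117H and none rose, against 4.62% of all expressed genes past the rule in either direction. The median log2 ratio of the members was -0.22 and that of all expressed genes -0.03. In B140H 2 members fell (S100a10 and Anxa5) and none rose, beside 3.94% of expressed genes, but from this contrast nothing is read because it chose the set. The members' median there was 0.18 and that of all genes 0.11. Centring on that median changed the genes past the rule from 233 higher and 164 lower to 173 higher and 199 lower, and the same 2 members stayed past it. Between the parental lines 6 of 10 members were past the rule, against 16.6% of expressed genes. Between the resistant lines 7 of 10 were, or 6 of 9 without S100a10, whose B140H value chose the set, against 18.9%. Nothing is read from these counts between lineages either. The members were chosen with earlier results of these data known, and the contrast that chose the set includes both B140 lines. The count between the parental lines comprised S100a6, higher in B140P, and S100a8, S100a9, S100a11, Anxa1 and Anxa5, lower there. Between the resistant lines S100a6 and Anxa2 were higher in B140H and S100a9, S100a10, S100a11, Anxa1 and Anxa5 lower. The Anxa2 value there, 1.01, fell inside the rule after centring and in TPM without small RNA genes, and in the latter S100a8 was lower past it.

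**Figure D2:**
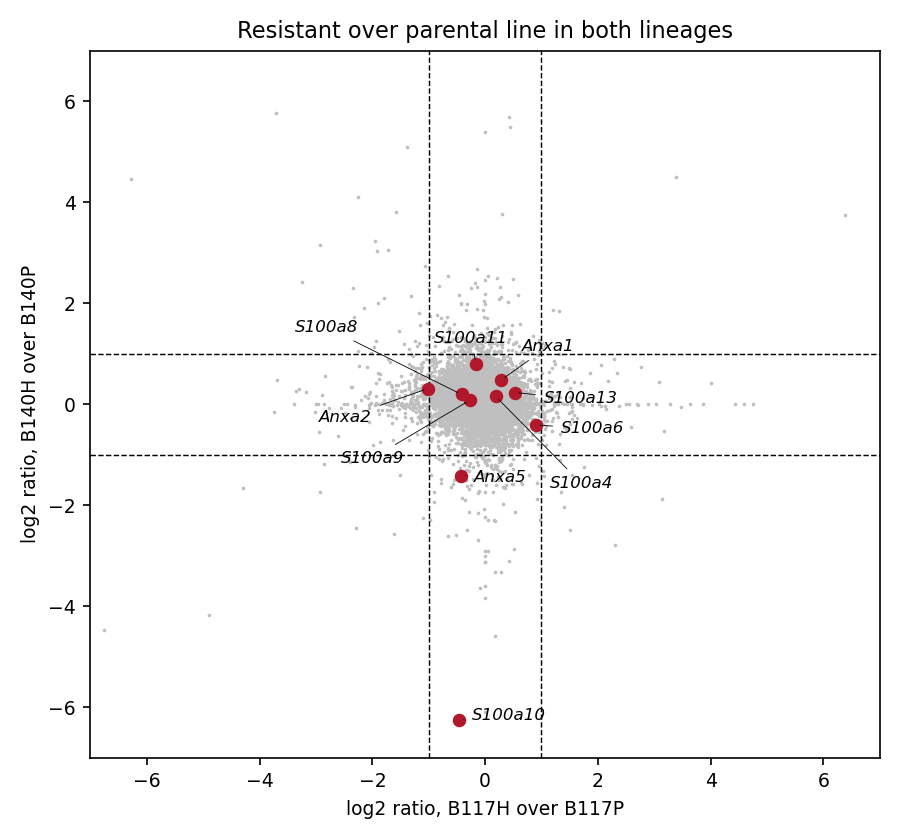
Log2 ratio of FPKM + 1 of the resistant over the parental line in lineage B117 (x axis) and lineage B140 (y axis) for 10034 expressed genes (grey) and the 10 members (red), with dashed lines at the 2-fold rule. Another 32 expressed genes lie outside the axes, S100a10 lies at -0.45 and -6.25, and Anxa2 lies on the left 2-fold line.

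Taking the lineages as a pair of replicates of resistant against sensitive, limma with the lineage as a block, on log2(FPKM + 1) and with 1 residual degree of freedom, called 0% of expressed genes at a Benjamini-Hochberg adjusted p of 0.05, and 218 of 10066 had an unadjusted p under 0.05. None of the members was called, and the limma adjusted p was 1 for each of the 9 members other than S100a10, whose p is not given because 1 of the pairs chose it. Among those 9, Anxa5 alone had an unadjusted p under 0.05, with a mean log2 ratio of -0.92 (SE 0.31) and a lower value in 2 of 2 resistant lines. None of the 9 had an unadjusted limma p under 0.05 without the filter on low values, with quantile normalization or without the lineage block. Of those 9 members, 3 (S100a4, S100a13 and Anxa1) were higher in both resistant lines, 1 (Anxa5) lower in both and 5 of opposite sign. In TPM without small RNA genes the S100a4 ratio in B140H was 0.00, and S100a9 was lower in both under that scaling and after centring. Of all expressed genes 2666 were higher in both, 1643 lower in both and 5582 of opposite sign.

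None of the expressed neighbours of S100a10 fell as far as it did in B140H, the contrast that chose S100a10 for its fall. Nothing is read from that, and neighbours at low levels could not have fallen as far. Of the 10 on each side, which span 4.57 Mb, 1 fell past 2-fold in B140H (S100a1, at -2.28) and 1 rose (Selenbp1, a selenium-binding protein, at 2.33). Their median log2 ratio was 0.20 in lineage B140 and -0.03 in lineage B117. The nearest on one side were S100a11 and S100a9, and on the other Mrpl9, a mitochondrial ribosomal protein gene, at 33.1 and 46.6 FPKM in B140P and B140H, and Snx27, a sorting nexin gene, at 13.3 and 15.5 FPKM. The nearest downstream neighbour, Mrpl9, starts 888.2 kb from the start of S100a10, while S100a11 starts 34.6 kb from it on the other side. S100a11 was already at 1.09 FPKM in B140P, so a loss of its transcript in B140H could hardly have shown. Whether the closer surroundings of S100a10 changed was thus not tested. Around Anxa2, 1 of 20 expressed neighbours fell past 2-fold in B117H (Aqp9, a water and glycerol channel, at -1.02) and none rose. The nearest to Anxa2, Vps13c and Narg2 on one side and Bnip2 and Gtf2a2 on the other, had log2 ratios of -0.47, 0.06, -0.06 and 0.20 in lineage B117.

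**Figure D3:**
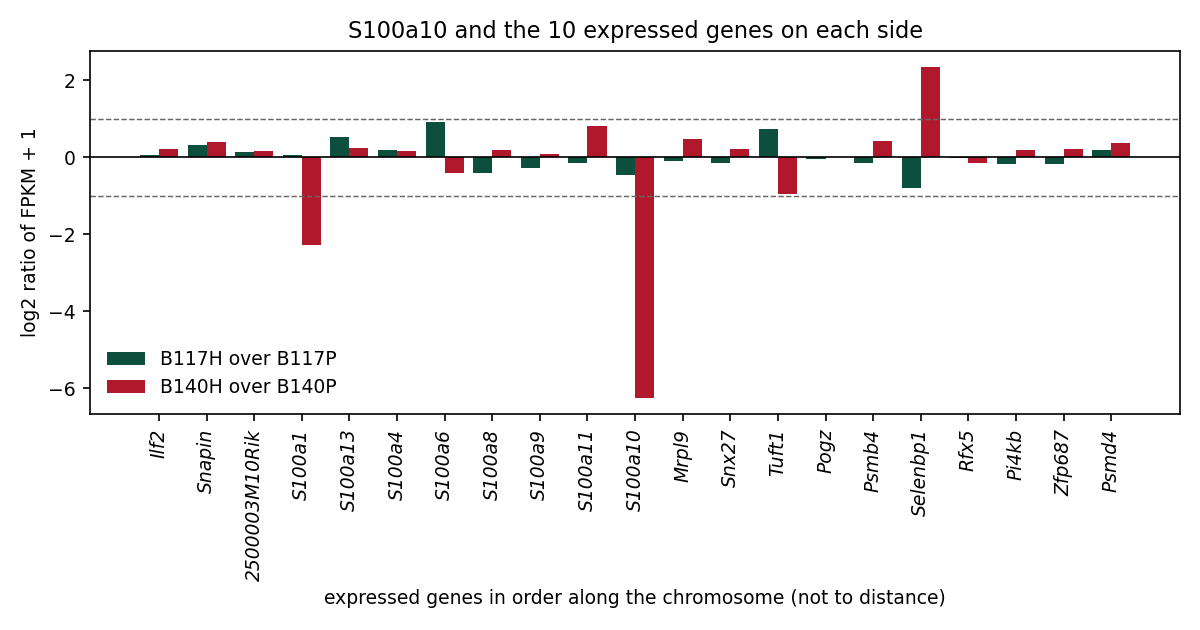
Log2 ratio of FPKM + 1, resistant over parental line, for S100a10 and the 10 expressed genes on each side in chromosome order, green for lineage B117 and red for lineage B140, with dashed lines at the 2-fold rule. In lineage B140 the bars of S100a10 (-6.25) and S100a1 (-2.28) reach below the lower line, while those of the genes beside S100a10 are above 0.

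The rest of the families differed in which annexins and S100 genes were low. Of the 17 listed S100 genes, 8 were expressed, and S100a7a, S100a16, S100b, S100g and S100z were at 0 in all 4 lines. S100a2 and S100a3 stayed under 1 FPKM in every line, at most 0.843 and 0.961, and S100a5 and S100a14 did as well. Of 12 annexin genes 9 were expressed, with Anxa8, Anxa10 and Anxa13 at 0. Anxa3, an annexin of neutrophil granules, was at 66.4 FPKM in B117P, 19.9 in B117H, 0.0344 in B140P and 0.0271 in B140H. It thus fell past 2-fold in B117H (-1.69) and was near absent from lineage B140, as S100a11 was.

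Among the other annexins, Anxa11 went from 20.8 to 8.48 FPKM in B140H (-1.20) and stood at 26.8 and 30.6 in lineage B117. Anxa9 went from 19.8 to 8.54 FPKM in B140H (-1.13) and from 6.26 to 3.28 in B117H (-0.76), although its listed span overlaps Fam63a. Anxa4, Anxa6 and Anxa7 were within the 2-fold rule in both lineages, with Anxa7 between 17.4 and 19.4 FPKM in all 4 lines. In all, 2 of 9 expressed annexins fell in B117H (Anxa2 and Anxa3), where 3.21% of expressed genes fell and 1.41% rose, and 3 in B140H (Anxa5, Anxa9 and Anxa11), where 1.63% fell and 2.31% rose, with no annexin rising. The medians of the 9 were -0.50 and -0.01, beside -0.03 and 0.11 over all expressed genes. Of the 8 expressed S100 genes none passed the rule in B117H, and 2 fell in B140H (S100a1 and S100a10), with medians of -0.05 and 0.12. Nothing is read from the B140H counts, since the set was selected on S100a10 in that contrast.

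**Figure D4:**
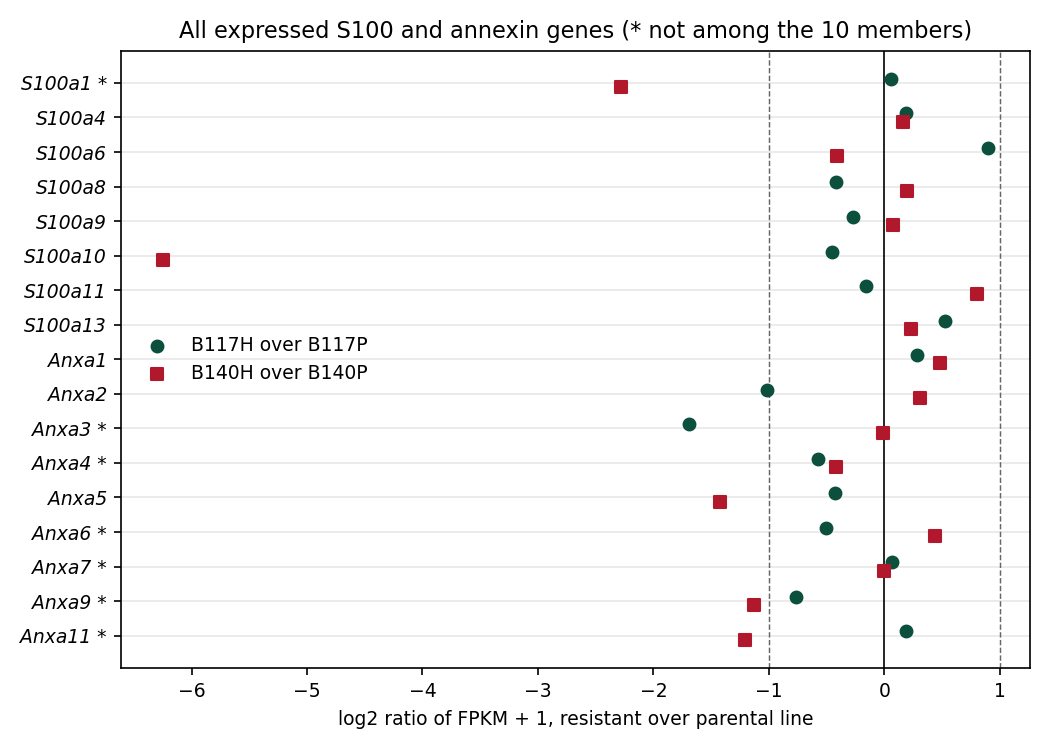
Log2 ratio of FPKM + 1, resistant over parental line, for the 17 expressed S100 and annexin genes (green circles, lineage B117; red squares, lineage B140; stars mark genes outside the 10 members), with dashed lines at the 2-fold rule. The squares of S100a10, S100a1, Anxa5, Anxa9 and Anxa11 and the circles of Anxa2 and Anxa3 lie past the lower line, and none lies past the upper one.

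Most genes that act with these proteins were within 2-fold, as were most expressed genes. Over all expressed genes 4.62% were past the rule in B117H and 3.94% in B140H. Counts of 0 in the short lists here and in the next paragraph are near those shares, and nothing is read from them. Of 9 listed binding partners of S100a10 and annexin A2, 3 were expressed and none passed 2-fold in either lineage. Ahnak, the giant scaffold protein held at the membrane by the S100a10 complex, was at 5.44 FPKM in B117P, 3.79 in B117H, 14.3 in B140P and 15.9 in B140H. Ctsb, cathepsin B, was at 14.3 FPKM in B117P, 9.54 in B117H, 37.9 in B140P and 42.5 in B140H. Of the plasminogen system 4 genes were expressed and none passed the rule. Plaur, the urokinase receptor, was at 13.8 FPKM in B117P, 6.49 in B117H (-0.98), 7.47 in B140P and 6.47 in B140H. Plau, urokinase, was at 1.41 FPKM in B117P, 0.484 in B117H, 2.44 in B140P and 1.28 in B140H, and Plg, plasminogen itself, was at 0 in all 4 lines. Ahnak, Ctsb, Plaur and Plau were named after their values were seen.

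Among the receptors of extracellular S100 proteins and annexin A1, 4 of 10 were expressed, and Cd14, a co-receptor of Tlr4, alone passed the rule, from 37.8 to 11.5 FPKM in B117H. Of 7 expressed calmodulin and penta-EF-hand genes and 7 glucocorticoid response genes, which include regulators linked to Anxa1, none passed 2-fold in either lineage. Sri, or sorcin, a calcium-binding partner of annexin A7, was at 17.2 FPKM in B117P, 29.0 in B117H, 0.0688 in B140P and 0.0897 in B140H. Sri was named after its values were seen.

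The expressed genes with the pattern most like that of S100a10 were found by the Euclidean distance between log2(FPKM + 1) profiles over the 4 libraries, each centred on its own mean. None lay within a distance of 1, and 1 lay within 2. They were Cenpb, a centromere protein, at 1.86, Pepd, a dipeptidase, at 2.55, Hbb-b2, a beta-globin, at 2.90, Ptpla, an enzyme of very long fatty acid synthesis, at 2.91 and Snora43, a small nucleolar RNA, at 3.01. Cenpb, Pepd and Snora43 were listed at exactly 0 in B140H, which can be a failed estimate, and Ptpla went from 16.1 to 1.29 FPKM. For S100a11, by contrast, 7 genes lay within a distance of 1, with Nkg7, a granule membrane protein of cytotoxic cells, the nearest at 0.57, followed by Ptgr1, App, H1f0 and Ccr2. Those 5 genes were at 46.2 to 127 FPKM in lineage B117 and at 0 to 2.44 FPKM in lineage B140.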

How the data were processed

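Each of the 4 files holds 1 library, and its values are FPKM per gene with mm9 coordinates as deposited by the authors. The tools named in the submitters' processing notes are TopHat2 2.0.4 and Cuffdiff, and the named build is mm9. The annotation, and how reads mapping to several places were treated, are not given in the sources used here. Each listed start was raised by 1, because spans then equalled those of RefSeq for 6285 of 19357 shared symbols, and for 31 if starts were taken as listed.

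Genes with a mean FPKM of at least 1 were compared as log2 ratios with a pseudocount of 1, and a ratio of at least 2-fold was counted. The members, gene lists and tests were chosen with earlier results of these data known. All 10066 expressed genes entered a limma fit (version 3.58.1, R 4.3.3) with a mean-variance trend, since the labels pair each resistant line with its parent. The depth estimate used the steps between low values of FPKM times transcript length in 761 genes with a single GENCODE M21 transcript of at least 3 kb (GRCm38), and 72.5% to 83.9% of 56 to 77 low values per library lay within 0.15 of a whole fragment. The unit came from the same values, so these shares are no independent check, and fragment numbers of short transcripts are approximate because the effective length is not known. Promoter windows came from RefSeq (GRCm38.p6). The 2-fold rule and the limma fit were tested on simulated data, in which each changed gene moved alike in both lineages.

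All 10 members are named, other family genes where they reach 1 FPKM in any line, up to 4 genes past 2-fold of each other list, the 2 nearest expressed neighbours on each side of S100a10 and Anxa2, and the 5 most similar profiles. Family genes at lower levels, list genes within 2-fold, markers, extreme neighbours and the profiles like S100a11 were named outside that rule after their values were seen. Other software was Python 3.11.15 with scipy 1.17.1, pandas 2.3.3, numpy 2.4.6 and, for plots, matplotlib 3.10.9.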

Additional observations from a re-analysis of the deposited data

Results flagged for a closer look

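The members below had log2 ratios of opposite sign in the lineages, and with 1 library per line these differences were not tested. The ratio in lineage B140 minus that in lineage B117 was 1.33 for Anxa2 (0.31 and -1.02) and -1.31 for S100a6 (-0.41 and 0.90). It was 0.96 for S100a11 (0.80 and -0.16), 0.61 for S100a8 (0.20 and -0.42) and 0.35 for S100a9 (0.08 and -0.27). For S100a8 in B140H the counting interval, 78.5% to 178% of the parent, included no change. So did those of S100a9, at 60.3% to 108% in B117H and 66.1% to 176% in B140H. The sign of S100a9 in B140H also depended on the scaling.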

How the results depend on the processing

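The count of members past 2-fold in B117H, 1 as reported, was 0 after centring, 0 in TPM without small RNA genes and 0 under a 4-fold rule. It was 1 with a pseudocount of 0.1, without the filter and with a minimum mean FPKM of 5. In B140H the count of 2 became 1 (S100a10) under the 4-fold rule and was 2 or 3 under the other 5 alternatives. Between the parental lines 6 became 3, and between the resistant lines 7 became 4, under the 4-fold rule. The parental count was 6, with the same members, under the other 5 alternatives. Between the resistant lines Anxa2 was no longer counted after centring (6) and in TPM without small RNA genes, where S100a8 was counted in its place (7). These alternatives across lineages were chosen after seeing the data. Of 100 alternative values of the 20 member ratios, 90 lay within the counting interval of the reported ratio, 10 outside it, and no ratio past 2-fold changed sign. The settings without the filter and with a minimum mean FPKM of 5 cannot change a ratio, so their values lay within the interval by construction. All 10 values outside the interval came from the pseudocount of 0.1, the centring and the TPM without small RNA genes. S100a10 in B140H ranged from -7.72 to -6.25. With a pseudocount of 0.1 the genes past 2-fold rose from 465 to 707 in B117H and from 397 to 647 in B140H.

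In the limma fit the members called were 0 with the lineage as a block and 0 with no replicate block, as with every other alternative, and 0 to 0 when any library was left out without the block. A lone library of an arm is there assumed to vary like the other arm. Over all genes the fit called 0, but 4 with a minimum mean FPKM of 5 and 6 without B140P. Depth limits the S100a10 value in B140H, which rests on about 6.74 fragments.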
